A study of Mus musculus with 32 samples.

Results

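Radial glia are the stem cells of the embryonic cortex, and the cells described here are the radial glia at embryonic days E14.5 and E16.0 in which neither Top2a nor Mki67 RNA was counted. They were chosen from measured counts of 8 genes in single cells. A cell was taken when its unique molecular identifiers (UMIs, each marking a captured RNA molecule) for Sox2 and Pax6, transcription factors of cortical stem cells, summed to at least 2. It also had to have 0 UMIs of Top2a and Mki67 (genes of dividing cells), Eomes (intermediate progenitors), Neurod6 (excitatory neurons), Gad2 (inhibitory neurons) and Olig1 (oligodendrocyte lineage). The rule was applied to barcodes with at least 1000 UMIs and 500 genes. It took 3881 of 74458 such cells at the 2 stages, in a series of 143705 such cells in 32 libraries. They were 1912 of 32087 cells (5.96%) at E14.5 and 1969 of 42371 (4.65%) at E16.0, between 162 and 398 per library. They are called Top2a/Mki67-negative radial glia below, and the cells that met the same rule but had at least 1 UMI of Top2a or Mki67, 6591 at these stages, are called Top2a/Mki67-positive radial glia.

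The study compared C57BL/6J mouse embryos that were wild type (WT) or carried 1 altered copy of Chd8 (Chd8+/-, het), a gene for a chromatin remodelling protein. Each of the 4 groups used here (WT and het at E14.5 and at E16.0) held 4 libraries, from 2 male (M1, M2) and 2 female (F1, F2) embryos, and each WT embryo was matched with a het embryo of its litter and sex. The labels do not say which embryos were matched, so WT and het embryos of the same stage and name are taken as pairs below. Dorsal telencephalon, the tissue that forms the cortex, was taken without its medial part, dissociated embryo by embryo and captured in droplets with the 3′ chemistry v2 of 10x Genomics, which reads the 3′ ends of transcripts. The labels do not say how the Chd8 copy was altered, and the alteration was not limited to a cell type by any label.

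Radial glia line the ventricle with their cell bodies and send a long basal fibre to the pial surface, along which newborn neurons migrate. They divide, keep their identity through Notch signalling, in which a ligand such as Dll1 on a neighbouring cell turns on Hes genes, and give rise to neurons directly or through intermediate progenitors. As neurogenesis ends they change over to making astrocytes and oligodendrocytes, and their expression of glial genes comes before that change.

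The 16 libraries held between 21705937 and 48506799 UMIs and between 2628 and 7388 kept cells, and the chosen cells contributed 25880850 UMIs. The median UMIs per chosen cell ranged from 5690 to 8638 over libraries, with a mean of 7355 at E14.5 and 6235 at E16.0 (n = 8 each, exact permutation test, two-sided, p = 0.0242). At E14.5 the medians were 7836 to 8638 in male libraries and 5798.5 to 7157 in female libraries, and at E16.0 they were 5690 to 6781. In the results below for male or female libraries alone, sex thus coincides with depth at E14.5. The part of depth in them was not tested. Mitochondrial UMIs made up between 0.648% and 0.974% of the median chosen cell, at E14.5 0.648% to 0.796% in male and 0.878% to 0.974% in female libraries. Pairs of libraries shared between 10 and 66 cell barcodes, at most 1.26% of the smaller library. Xist and Y-linked genes matched the labelled sex in 16 of 16 libraries. Only 9 of the chosen cells were among the 2951 cells that a doublet search marked.

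Of the 3881 cells, 3022 (77.9%) had UMIs of both Sox2 and Pax6, the genes the rule selected on. Markers of radial glia that the rule did not use were also present. Slc1a3, the glutamate transporter of radial glia and astrocytes, ranged from 239 to 321 CPM (counts of the chosen cells summed per library and scaled to a common total) over the E14.5 libraries and from 488 to 627 CPM over the E16.0 libraries. Hes5, an effector of Notch signalling, ranged from 342 to 570 CPM and from 348 to 413 CPM. The data went against calling the cells non-cycling. At least 2 UMIs of a list of 20 S-phase genes, such as the Mcm helicase subunits, were present in 3584 cells (92.3%), 94.7% at E14.5 and 90.0% at E16.0. After each cell was thinned to 2000 UMIs, this share was 76.5 ± 1.25% (SD, n = 8) at E14.5 and 73.7 ± 3.57% at E16.0. It was 84.8% and 82.4% in Top2a/Mki67-positive radial glia and 22.5% and 23.6% in cells with at least 2 Neurod6 UMIs, which are neurons.

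The summed level of the S-phase list had a median of 2805 CPM over the E14.5 libraries and 2712 CPM over the E16.0 libraries in the chosen cells. It had a median of 3230 and 3396 CPM in Top2a/Mki67-positive radial glia and 717 and 942 CPM in the neurons. The summed level of 18 G2 and M phase genes was 1906 and 1983 CPM in the chosen cells, 7920 and 9081 CPM in Top2a/Mki67-positive radial glia and 1236 and 1670 CPM in the neurons. The chosen cells thus had low G2 and M phase RNA, which the rule had selected for, and S-phase RNA well above that of neurons. Top2a and Mki67 are known to be expressed mainly late in the cell cycle. Whether any of the chosen cells had left the cycle was not tested.

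**Figure D1:**
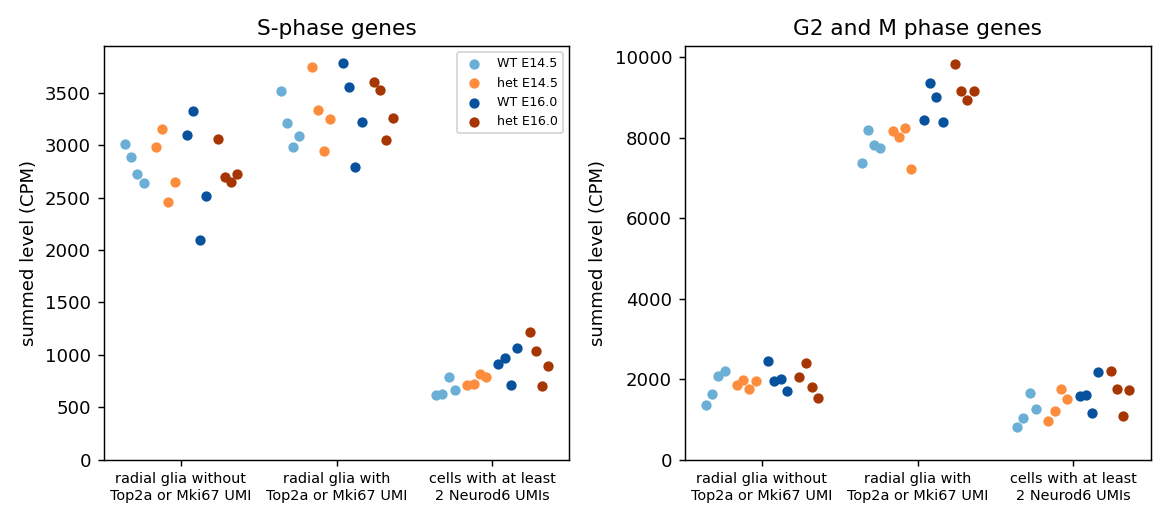
Summed level (CPM) of 20 S-phase genes (left) and 18 G2 and M phase genes (right) in 3 cell classes, each point a library coloured by genotype and stage. S-phase levels of radial glia without a Top2a or Mki67 UMI lie between 2097 and 3321 CPM, far above those of neurons, while their G2 and M phase levels lie near those of neurons.

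Against the other cells of the same library, the genes most enriched beyond those of the rule joined stem cell, glial and DNA replication genes. This is the contrast of the rule, so the ratios describe the chosen cells and were not tested. Ung, a uracil DNA glycosylase of S phase, was 3.34 to 7.15 times as high as in the other cells over the 16 libraries. Hes5 was 3.11 to 7.30 times and Id4, an inhibitor of basic helix-loop-helix factors, 3.02 to 5.69 times as high. Next came Egln3, an oxygen sensor, Ecrg4, Fgfbp3, a carrier of FGF ligands, and Gins2, a subunit of the replicative helicase (2.93 to 4.76 times). Pdpn, Aldoc, Acsbg1, Ednrb, the endothelin receptor of glial cells, and Mlc1, an astrocyte membrane protein, completed the 12 genes, with a lowest ratio of 2.75. Ung and Gins2 averaged 181 and 144 CPM in these cells and 90.0 and 102 CPM in Top2a/Mki67-positive radial glia, the cells most like them. Fgfbp3 (340 and 221 CPM), Ecrg4 (61.5 and 41.6 CPM) and Hes5 (436 and 305 CPM) were about as far apart as Gins2. Id4 (1187 and 983 CPM), Aldoc (1021 and 879 CPM) and Ednrb (112 and 102 CPM) were nearer in level.

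The rule's thresholds cut through a continuum. Exactly 2 UMIs of Sox2 and Pax6 were present in 659 of the chosen cells, and 728 cells lay just outside with 1 UMI and all other conditions met. Those 728 cells had means of 127 CPM of Slc1a3 at E14.5 and 402 CPM at E16.0, below the 281 and 554 CPM of the chosen cells. Another 1435 cells lay just outside with a single UMI of Top2a or Mki67.

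Markers of other cell types differed in level by list. The first 3 lists below each hold a gene that the rule set to 0 in the chosen cells (Neurod6, Eomes and Gad2), so part of their contrast with the other cells was fixed by the rule. The oligodendrocyte precursor list holds Olig1, also set to 0, so part of its low level was fixed as well. Summed over 15 excitatory neuron markers, the chosen cells had a median of 555 CPM at E14.5 and 467 CPM at E16.0, against 6345 and 5852 CPM in all other cells. For 10 intermediate progenitor markers the medians were 530 and 419 CPM, against 1375 and 1172 CPM. For 14 interneuron and ventral progenitor markers they were 261 and 194 CPM, against 189 and 158 CPM, so that of these 3 lists only the last was not lower in the chosen cells. Oligodendrocyte precursor, endothelial, microglial and meningeal fibroblast lists each summed to at most 7.55 CPM in every library, pericyte markers to at most 17.9 CPM and cortical hem and choroid plexus markers to at most 29.7 CPM. Cajal-Retzius markers ranged from 3.67 to 114 CPM. Red cell genes ranged from 80.9 to 4863 CPM, with Hbb-bs at 1588 CPM in WT F2 at E14.5 and 2152 CPM in WT F1 at E16.0. Free RNA was not modelled.

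The share of cells that met the rule varied more between libraries of a group than between groups. At E14.5 it was 4.27%, 6.07%, 7.04% and 5.62% in the WT libraries M1, M2, F1 and F2, and 4.53%, 6.52%, 6.16% and 7.45% in the het libraries. At E16.0 the WT libraries had 4.95%, 4.58%, 3.88% and 7.77%, and the het libraries 5.52%, 3.78%, 3.43% and 5.21%. All groups overlapped. The mean was 5.96 ± 1.12% (SD, n = 8) at E14.5 and 4.89 ± 1.38% at E16.0, a difference that did not pass an exact permutation test (two-sided, difference of -1.07 percentage points, p = 0.110). Without the library WT F2 at E16.0 the difference was -1.48 points (exact permutation p = 0.0148), and it was -1.38 points (exact permutation p = 0.0463) when the rule was applied after thinning every cell to 2000 UMIs. The het mean was 0.416 points above the WT mean at E14.5 (5.75 ± 1.15% and 6.17 ± 1.22%, n = 4, exact permutation p = 0.6) and 0.813 points below it at E16.0 (5.30 ± 1.71% and 4.48 ± 1.03%, n = 4, exact permutation p = 0.543), where the smallest p that 4 against 4 libraries can give is 0.0286. A share cannot tell fewer radial glia from more of the other cells.

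**Figure D2:**
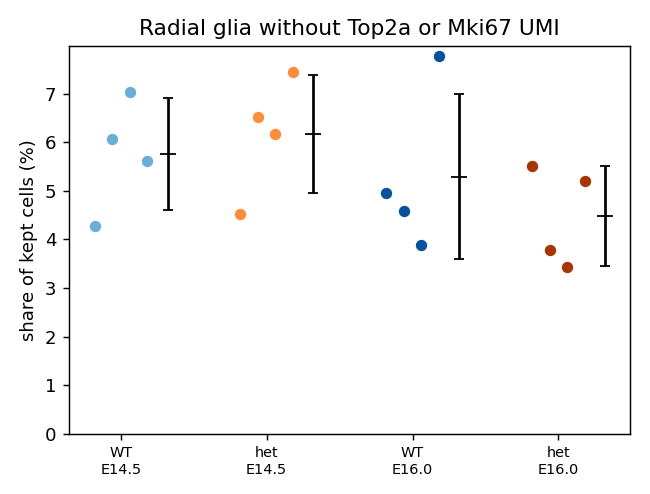
Share of kept cells (%) that met the rule, each point a library, with the mean and SD of the 4 libraries of each group beside it. The shares of all 4 groups overlap, and WT F2 at E16.0 has the highest share, 7.77%.

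From E14.5 to E16.0 the chosen cells changed in many genes. The counts of the chosen cells were summed per library and compared with edgeR's quasi-likelihood test over 9956 genes. At an adjusted p under 0.05, 2052 genes (20.6% of those tested) changed, 1096 upward (11%) and 956 downward (9.6%), and the median change of all genes was -0.00 on the log2 scale. For 543 genes (5.45%) the 8 libraries of a stage did not overlap those of the other in CPM. Below, "rose" and "fell" are kept for genes past that threshold, "not called" marks the others, log2 changes are E16.0 over E14.5 with their standard error (SE), and a CPM is relative to all UMIs of the chosen cells of a library, before the scaling between libraries that the test applies. That scaling (TMM) lowers a log2 change from E14.5 to E16.0 by 0.11 relative to the CPM values. In these sums, more cells that express a gene and more RNA per cell cannot be told apart.

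Genes of the glial scaffold and of transport rose together. Of 24 tested structural and transport genes of radial glia, 18 rose, 1 fell and the median change was 0.52. Fabp7, the brain fatty acid binding protein of radial glia (chr10:57784881-57788450, GRCm38), had 3450, 4398 and 4654 CPM as the lowest, median and highest of the E14.5 libraries and 9254, 10518 and 11344 CPM at E16.0. Its groups did not overlap, and it rose by 1.18 (SE 0.07, edgeR adjusted p = 1.11e-10). Ptprz1, a receptor phosphatase of radial glia (chr6:22875502-23052916), went from 78.0, 102 and 137 CPM to 318, 338 and 385 CPM, again without overlap, and rose by 1.64 (SE 0.10, edgeR adjusted p = 4.13e-10). Slc1a3 rose by 0.87, the diazepam binding protein gene Dbi by 0.53, the intermediate filament gene Vim by 0.29 and the adhesion gene Cdh2 by 0.53. In WT libraries alone Vim (0.32) and Cdh2 (0.51) were not called, nor was Cdh2 in female libraries alone (0.33). Nestin (Nes, -0.17) was not called, except in male libraries alone (-0.28). Mt1, a metallothionein, was the exception with -0.42 (SE 0.13, edgeR adjusted p = 0.0263), and its call was lost when any of 7 of the 16 libraries was left out.

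Genes that mark astrocytes or the outer, basal kind of radial glia gave the steepest rises. Of 23 tested glial onset genes 16 rose and none fell, with a median of 0.75. Of 9 tested basal radial glia genes, which share Tnc, Hopx and Slco1c1 with that list, 6 rose and none fell, with a median of 1.49. Tnc and Ptprz1 are also among the structural and transport genes above. Tnc, which encodes the extracellular matrix protein tenascin C (chr4:63959785-64047015; a transcript on the other strand, 8030451A03Rik, overlaps it), had 3.52, 4.88 and 16.1 CPM as the lowest, median and highest of the E14.5 libraries and 73.8, 93.0 and 139 CPM at E16.0. The groups were far apart, and it rose by 3.89 (SE 0.22, edgeR adjusted p = 6.96e-11). Slco1c1, a thyroid hormone transporter, went from 0, 1.98 and 4.03 CPM to 25.0, 27.7 and 61.6 CPM (4.17, SE 0.34).

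Aldh1l1, a folate enzyme used as an astrocyte marker, went from 1.39, 13.9 and 19.7 CPM to 54.0, 66.2 and 85.7 CPM (2.49, SE 0.21). Hopx, a homeodomain gene of basal radial glia (chr5:77086988-77115121; the antisense gene Hopxos overlaps it), went from 6.48, 7.90 and 10.6 CPM to 18.5, 26.5 and 31.1 CPM (1.49, SE 0.17, edgeR adjusted p = 1.23e-06). For both genes the E16.0 libraries all lay above the E14.5 libraries. Luzp2 rose by 2.77, the matrix gene Sparcl1 by 2.31, the lipid carrier Apoe by 1.88, the fatty acid gene Acsbg1 by 1.30 and the transcription factor Zbtb20 by 1.09. Nfia (0.21, adjusted p = 0.189), Nfib (0.19, adjusted p = 0.0938), Nfix (0.13, adjusted p = 0.338) and Sox9 (-0.05, adjusted p = 0.681) were not called by edgeR. Nfia was called after each cell was thinned to 2000 UMIs (0.43, edgeR adjusted p = 0.0123), and Nfib in female libraries alone (0.43, edgeR adjusted p = 0.00891). Genes of mature astrocytes were near 0, with 7 UMIs of Gfap and 56 of Aqp4 in all chosen cells.

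**Figure D3:**
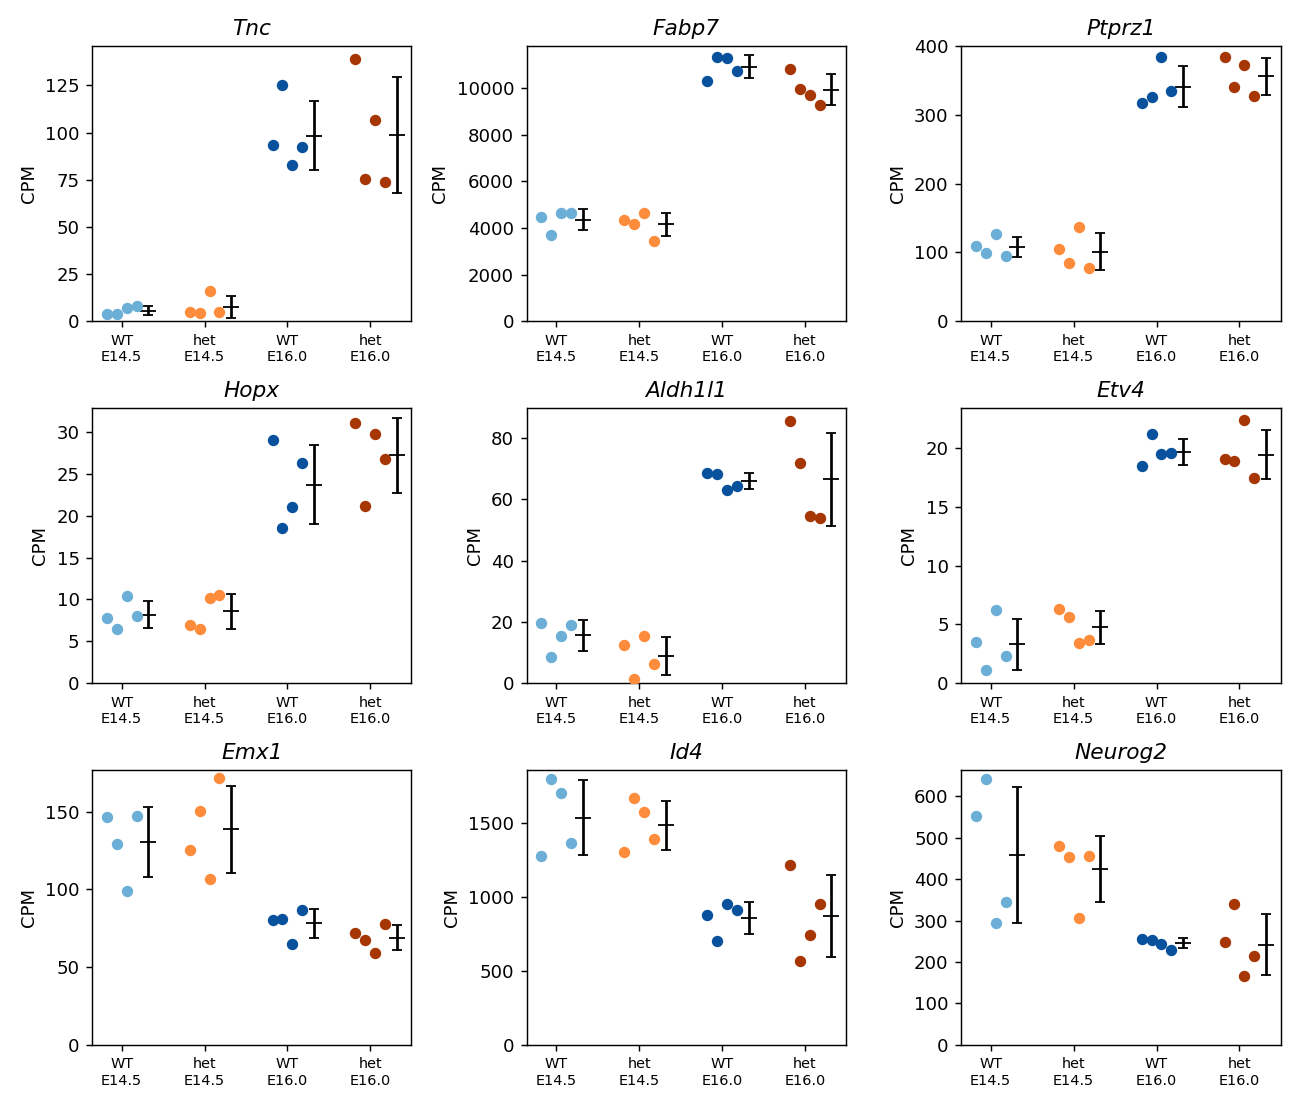
CPM of 9 genes in Top2a/Mki67-negative radial glia, each point a library, with the mean and SD of the 4 libraries of each genotype and stage. Tnc, Fabp7, Ptprz1, Hopx, Aldh1l1 and Etv4 are higher in every E16.0 library, Emx1 and Id4 are lower in every E16.0 library, and Neurog2 is lower at E16.0 with overlap.

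Transcription factors of cortical stem cells mostly fell. Of 20 tested, without Sox2 and Pax6, 11 fell and 3 rose, with a median of -0.28. Emx1, a homeobox gene of the dorsal telencephalon (chr6:85187438-85204462), went from 98.9, 138 and 171 CPM to 58.8, 74.8 and 86.9 CPM without overlap (-0.99, SE 0.10, edgeR adjusted p = 5.12e-07). Id4 fell by 0.92, Emx2 by 0.59, Lhx2, the cortical selector gene, by 0.55, and Sox3 by 0.63. Sox3 was not called in male (-0.39) or WT libraries alone (-0.45) or after thinning (-0.58), and Emx2 not in WT (-0.56) or female libraries alone (-0.45). Among the chosen cells with at most 1 S-phase UMI, Emx1 (-0.87), Id4 (-0.81), Emx2 (-0.60) and Lhx2 (-0.41) were not called. Id1 (1.20) and Id3 (1.01), targets of BMP signalling, and Gli3 (0.40), a transcription factor of SHH signalling, were the ones that rose. Gli3 was not called in WT (0.41) or female libraries alone (0.39) or after thinning each cell to 2000 UMIs (0.36).

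Notch genes did not move as a group. Of 20 tested, 3 rose, 4 fell and the median was 0.08. Among receptors, Notch1 rose by 0.50. Among ligands, Jag1 rose by 1.19 and Dll1, the ligand of cells that commit to neurogenesis, fell by 0.73. Dll1 was not called after thinning each cell to 2000 UMIs (-0.40) or in female (-0.39) or WT libraries alone (-0.75). Jag1 was not called in female libraries alone (1.17). Rbpj, the DNA-binding partner of the cleaved receptor, rose by 0.43, and the glycosyltransferase gene Mfng fell by 0.86. Rbpj was not called in male (0.29), female (0.60) or WT libraries alone (0.35). The effectors Hes5 and Hey1 fell by 0.41 and 0.31. Hes5 was not called in female (-0.23) or WT libraries alone (-0.39), and Hey1 not in female (-0.27) or WT libraries alone (-0.14) or after thinning (-0.17). Hes1 was not called (-0.25, edgeR adjusted p = 0.326), except in male libraries alone (-0.54) and with no filter on low counts (-0.26). Hes5 had 342, 488 and 570 CPM as the lowest, median and highest of the E14.5 libraries and 348, 396 and 413 CPM at E16.0 (SE 0.08, edgeR adjusted p = 0.000693). The libraries overlapped, and the direction turned (0.25) among the chosen cells with at most 1 S-phase UMI.

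The promoter of Hes5 is shown because Hes5 marks these cells and is a direct target of Notch signalling. RefSeq gives the 250 bases before its start at chr4:154960673-154960922 (GRCm38.p6, + strand). Capitals mark the letters TGGGAA, or TTCCCA on the other strand, which the Notch partner RBPJ is known to bind. They lie 226 and 82 bases before the start.
Hes5: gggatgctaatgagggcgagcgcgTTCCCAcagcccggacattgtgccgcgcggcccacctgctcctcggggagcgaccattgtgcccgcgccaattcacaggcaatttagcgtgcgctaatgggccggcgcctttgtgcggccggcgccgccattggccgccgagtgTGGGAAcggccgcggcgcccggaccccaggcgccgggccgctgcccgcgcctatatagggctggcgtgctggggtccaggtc
The letters occur, on either strand, in 21.6% of 32851 mouse promoters of this length and in those of 6 of the 19 Notch genes with a promoter in the table.

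Genes of early progenitors fell. Of 9 tested early temporal identity genes 6 fell and none rose, with a median of -0.39. Crabp2, a retinoic acid binding protein, went from 13.8, 20.7 and 27.7 CPM to 0.635, 1.82 and 5.30 CPM (-3.42, SE 0.26, edgeR adjusted p = 3.54e-09). No E16.0 library reached the lowest E14.5 library. The chromatin proteins Hmga1 (overlapped by AI413582 on the other strand) and Hmga2 fell by 1.26 and 0.82, the RNA-binding protein Igf2bp1 by 0.66 and the oncogene Mycn by 0.37. In WT libraries alone Hmga1 (-0.68), Igf2bp1 (-0.68) and Mycn (-0.30) were not called, nor was Igf2bp1 in female libraries alone (-0.35). The direction of Mycn (0.19) turned among the chosen cells with at most 1 S-phase UMI, as did those of Mt1 (0.51), Fezf2 (0.23) and Ldha (0.03).

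Signalling genes moved mainly upward. Of 36 tested genes of WNT, FGF, BMP and SHH signalling 18 rose and 4 fell, with a median of 0.35. Etv4, a transcription factor induced by FGF signalling, went from 1.08, 3.59 and 6.27 CPM to 17.4, 19.3 and 22.4 CPM without overlap (2.21, SE 0.20, edgeR adjusted p = 7.91e-08). The related Etv5 and Etv1 each rose by 1.10, the feedback inhibitor Spry2 by 1.13 (not called by DESeq2) and the receptor Fgfr1 by 0.58. In the BMP branch the ligand Bmp7 rose by 1.36 and the receptor Bmpr1a by 0.70, and in the SHH branch the receptor Ptch1 rose by 1.05. In WT libraries alone Bmp7 (1.26), Ptch1 (0.87) and Spry2 (1.10) were not called, nor were Bmp7 (1.17) and Spry2 (1.07) in female libraries alone. All 4 genes that fell belong to WNT signalling: the receptor genes Fzd9 (-1.26) and Fzd1 and the nuclear factors Lef1 (-1.47) and Tcf7l1 (-0.90). Other genes of WNT signalling rose, among them Dkk3 by 1.20, the nuclear factor gene Tcf7l2 by 0.50, Sfrp1 by 0.34 and the beta-catenin gene Ctnnb1 by 0.27. Of 20 tested apical junction genes, which hold radial glia at the ventricle, 5 rose and none fell, with a median of 0.19, among them Mpp5 (0.48), whose call was lost without any of 9 of the 16 libraries and in male libraries alone (0.24).

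Genes of commitment to neurogenesis fell. Of 16 tested, 11 fell and none rose, with a median of -0.74. Neurog2, the transcription factor that starts cortical neurogenesis (chr3:127633135-127635631), went from 294, 455 and 641 CPM to 167, 246 and 339 CPM (-0.96, SE 0.14, edgeR adjusted p = 2.5e-05). Only the highest E16.0 libraries reached the lowest of E14.5. Its relative Neurog1 went from 3.48, 6.96 and 16.96 CPM to 0.612, 1.23 and 3.49 CPM (-2.69, SE 0.43). The corepressor Rcor2 fell by 1.21, the small GTPase gene Rnd2, a target of Neurog2, by 0.95, Gadd45g by 0.76 and Btg2 by 0.39. Among the chosen cells with at most 1 S-phase UMI the changes of Neurog2 and Gadd45g were -0.16 and -0.04 and not called, and that of Btg2 was 0.21. Rnd2 and Btg2 were not called in WT (-0.93 and -0.34) or female libraries alone (-0.96 and -0.31). Of 5 tested markers of intermediate progenitors 3 fell, Btg2 and Gadd45g, which are in both lists, and Chd7. Of 10 tested excitatory neuron markers 4 fell, among them Tubb3 by 0.84 (not called in female libraries alone, -0.52). The part of these cells in the change was not tested.

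Area genes moved both ways, 5 up and 7 down of 18 tested. Dmrt3, a gene of the medial cortex, fell by 2.14 (21.7 CPM in the median E14.5 library, 5.47 CPM at E16.0), Sp8 by 0.87, Lix1 by 0.73 and Fezf2, which specifies deep-layer neurons, by 0.53, while Tox rose by 0.73. Etv1, Etv4 and Etv5, 3 of the 5 that rose, are also among the signalling genes above. Sp8 was not called in female (-0.42) or WT libraries alone (-0.56). Of 9 tested interneuron and ventral progenitor markers 1 rose and 2 fell, with a median of -0.45. Gsx2 rose by 2.18 (medians of 1.83 and 13.1 CPM), and Dlx5 fell by 1.30. Dlx5 was not called in female (-0.58) or WT libraries alone (-1.39) or after thinning (-1.10). Pdgfrb, the only pericyte marker tested, rose by 1.77 (medians of 2.76 and 9.47 CPM), and of 5 tested red cell genes the embryonic globin gene Hbb-y fell by 3.95 while the other 4, with positive changes, were not called (median of 1.33). The part of ventral cells, pericytes and red cells in the other changes was not tested.

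Few cell cycle genes were called between the stages, but the S-phase list leaned downward. Its 20 genes had a median of -0.15, with 4 positive and 8 at an unadjusted p under 0.05 (edgeR). The 18 G2 and M phase genes had a median of -0.06, with 8 positive. Of 20 S-phase genes Ccne2 rose by 0.58 and Mcm5 fell by 0.34, of 18 G2 and M phase genes Ube2c (overlapped by Tnnc2 on the other strand) and Birc5 fell by 0.61 and 0.50, and the other 18 and 16 genes of these lists were not called. In male libraries alone Ube2c (-0.15) and Birc5 (-0.10) were not called, nor was Birc5 without any of 9 of the 16 libraries, and in female libraries alone Ccne2 was not (0.27). In WT libraries alone Ccne2 (0.50), Mcm5 (-0.39) and Birc5 (-0.51) were not called, nor were Ccne2 (0.69) and Mcm5 (-0.27) after thinning. Among 12 tested G1 cyclins and inhibitors of cyclin-dependent kinases, the inhibitors Cdkn1b and Cdkn2c rose by 0.39 and 0.45, and the inhibitor Cdkn1c and the kinase Cdk4 fell by 0.78 and 0.34. In female libraries alone Cdkn1c (-0.29), Cdkn2c (0.19) and Cdkn1b (0.45) were not called, and in WT libraries alone Cdkn1b (0.22), Cdkn2c (0.53) and Cdk4 (-0.28) were not. After thinning Cdkn2c (0.28) and Cdkn1b (0.48) were not called. Cdkn1b was also not called with a sum of at least 3 UMIs of Sox2 and Pax6 (0.34), nor Cdk4 with at most 1 S-phase UMI (-0.19).

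Metabolic genes moved in opposite directions by pathway. Of 16 tested glycolysis genes 8 fell and 2 rose, with a median of -0.33. Gapdh went from 2325, 2517 and 3053 CPM to 1230, 1586 and 2058 CPM without overlap (-0.80, SE 0.09, edgeR adjusted p = 2.79e-06). The lactate exporter Slc16a3 fell by 1.17, Eno1 by 0.66 and Ldha by 0.45, while the brain aldolase Aldoc rose by 0.57. In WT libraries alone Slc16a3 (-0.91) and Eno1 (-0.47) were not called, nor was Ldha in female libraries alone (-0.35). Among the chosen cells with at most 1 S-phase UMI, Eno1 (-0.50) and Pkm (-0.09) were not called, and Ldha (0.03) and Tpi1 (0.08) turned upward. Of 18 cholesterol synthesis genes 11 rose and none fell, with a median of 0.36. Hmgcs1, which makes the precursor of mevalonate, went from 149, 293 and 431 CPM to 442, 515 and 613 CPM (0.69, SE 0.14, edgeR adjusted p = 0.000853). Each E16.0 library lay above each E14.5 library. Idi1 rose by 0.86, Mvk by 0.55 and Sqle by 0.48. In female libraries alone Hmgcs1 (0.58), Idi1 (0.72) and Mvk (0.38) were not called, nor was Idi1 in WT libraries alone (0.66) or Sqle with at most 1 S-phase UMI (0.43).

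The promoter of Hmgcs1 is shown for the sterol response element, TCACNCCAC with N any base, which SREBP factors are known to bind in genes of this pathway. RefSeq gives the 250 bases before its start at chr13:119690101-119690350 (GRCm38.p6, + strand), with the match in capitals 137 bases before the start.
Hmgcs1: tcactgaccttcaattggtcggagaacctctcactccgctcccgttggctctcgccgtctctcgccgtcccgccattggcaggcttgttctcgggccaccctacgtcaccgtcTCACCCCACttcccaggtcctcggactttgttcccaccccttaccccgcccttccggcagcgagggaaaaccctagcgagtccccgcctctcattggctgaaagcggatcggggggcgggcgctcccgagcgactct
The element occurs on either strand in 1.05% of 32851 promoters of this length and in that of 1 of the 12 cholesterol genes with a promoter in the table.

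Of 11 tested immediate early and heat shock genes, which dissociation of tissue can induce, 7 fell and none rose, with a median of -0.34. Ier2 fell by 1.22, Dusp1 by 0.96 and Fos by 0.86 (SE 0.28, edgeR adjusted p = 0.0347), and the call of Fos was lost when any of 9 of the 16 libraries was left out. Dusp1 and Fos were not called in female (-0.43 and -0.13) or WT libraries alone (-0.89 and -0.73). The part of tissue handling in the stage changes was not tested.

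**Figure D4:**
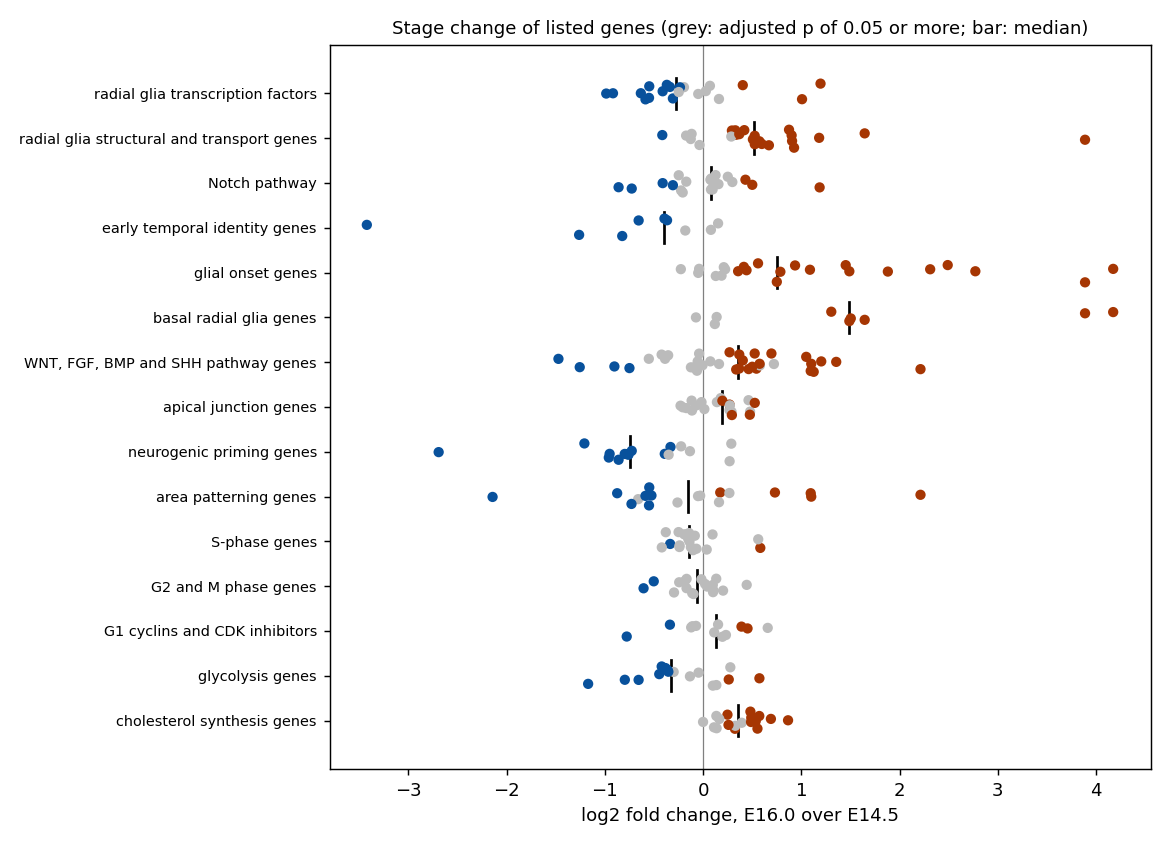
log2 fold change from E14.5 to E16.0 of each tested gene of 15 lists, each point a gene, red where it rose, blue where it fell and grey where edgeR's adjusted p was 0.05 or more, with the median as a bar. The glial onset and basal radial glia lists lie furthest to the right (medians of 0.75 and 1.49) and the neurogenic priming list furthest to the left (-0.74).

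Outside these lists, the largest rises among genes of at least 20 CPM were as follows. Scrg1 rose by 2.79, the dystrobrevin gene Dtna by 2.47, the myelin protein gene Pmp22 by 2.36, Ecrg4 by 2.09 and Nav2 by 1.92. The E16.0 libraries lay above the E14.5 libraries for each of them. The steepest falls were in Nr4a2 (-1.46), an orphan nuclear receptor, Car14 (-1.34; Aph1a overlaps it), a carbonic anhydrase, Txnip (-1.26; Gm15441 overlaps it), an inhibitor of thioredoxin, the noncoding RNA Snhg15 (-1.21), the linker histone H1fx (-1.15) and Lsr (-1.15). For Txnip, H1fx and Lsr the stages overlapped, and H1fx was not called in male (-0.18) or WT libraries alone (-1.11). As limits, the count of 2052 genes was 870 of 6835 after each cell was thinned to 2000 UMIs, and 91 of 2007 in the 297 cells with at most 1 S-phase UMI. It was 624 in WT libraries alone, 862 in female libraries alone and 2133 in male libraries alone.

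Shares of cells with a UMI moved in the direction of the summed counts for Neurog2, Tnc, Hopx and Hes5 at equal depth. Each cell was thinned to 2000 UMIs, which left out 7 chosen cells, and 10 genes and the S-phase list were compared by exact permutation tests over libraries, 33 tests with the genotype comparisons. These stage tests, like those of edgeR above, take the 8 libraries of a stage as separate samples, although they are 4 litter-matched pairs. With the 4 pairs of a stage as units, an exact permutation test could give no p below 0.0286, and none would pass the adjustment. Neurog2 was found in 30.7 ± 4.50% of the chosen cells (SD, n = 8) at E14.5 and 19.2 ± 3.16% at E16.0 (exact permutation, adjusted p = 0.00256). Every E16.0 library had a lower share than every E14.5 library. The share without thinning was 50.1% and 31.3%, and in the neurons it was 26.7% and 23.5% after thinning, at E16.0 above that of the chosen cells. Tnc was found in 0.937 ± 0.523% and 16.1 ± 4.27% (adjusted p = 0.00256, exact permutation), without overlap, and in 0.0764% and 0.584% of neurons. Hopx was found in 2.08 ± 0.996% and 5.29 ± 1.86% (adjusted p = 0.0154, exact permutation; neurons 0.135% and 0.252%). In Top2a/Mki67-positive radial glia these shares moved the same way after thinning, from 19.7% to 13.7% for Neurog2, 1.29% to 13.8% for Tnc and 1.70% to 4.95% for Hopx. Even at E16.0 most chosen cells had no UMI of Tnc or Hopx at this depth.

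The share for Hes5 passed less firmly. It was found in 49.8 ± 4.18% and 42.1 ± 4.52% (adjusted p = 0.0449, exact permutation; neurons 4.21% and 2.62%). In Top2a/Mki67-positive radial glia the Hes5 shares were 43.1% and 33.8%. The Hes5 share of the chosen cells lost the threshold when any of 13 of the 16 libraries was left out. Hes1, Ccnd1, Ccnd2, Dll1, Cdkn1c and the S-phase list did not pass, and no share passed between genotypes, the smallest adjusted p being 0.269 (exact permutation).

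Cells with Neurog2 differed from those without in the same libraries. This split uses these cells' own counts and is given as a description. At E14.5, thinned cells with Neurog2 had 861 ± 210 CPM of Gadd45g (SD, n = 8) against 66.1 ± 12.7 CPM without, and 68.4 ± 44.4 against 2.83 CPM of Dll1, both higher in 8 of 8 libraries. They had 2669 ± 369 against 4782 ± 521 CPM of Fabp7 and, at E16.0, 6002 ± 993 against 11293 ± 819 CPM, lower in 8 of 8 libraries at each stage. The S-phase genes Pcna and Rrm2 were also lower in them in 8 of 8 libraries, Pcna with 123 ± 27.8 against 225 ± 18.8 CPM at E14.5. Vim was higher in the cells with Neurog2 in 8 of 8 libraries at each stage, with 2793 ± 448 against 2448 ± 366 CPM at E14.5 and 3705 ± 249 against 3145 ± 331 CPM at E16.0.

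Next, the stage change of the chosen cells was set against that of Top2a/Mki67-positive radial glia of the same libraries, in a fit over 11144 genes with the library as a block. The change differed for 59 genes (0.529%), more positive in the chosen cells for 27 (0.242%) and more negative for 32 (0.287%). The split was 17 and 35 under the size factors of DESeq2 in the same test. Fabp7 rose by 1.18 in the chosen cells and had a change of 0.90 in the positive cells, a difference of 0.28 (SE 0.03, edgeR adjusted p = 3.37e-07). The same direction held for Aldoc (0.57 and 0.30), Dbi (0.53 and 0.38), Mt3 (0.91 and 0.67) and Ptprz1 (1.64 and 1.42). Glul, the glutamine synthetase of glia, rose by 0.45 and changed by 0.16 (difference of 0.29, SE 0.07, edgeR adjusted p = 0.0258).

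By size, the most positive differences among genes of at least 20 CPM were those of Npas3 (0.53), a transcription factor, Adamts18 (0.51), Slc15a2 (0.45), a peptide transporter, Lix1 (0.44), Tanc1 (0.44), Camk2d (0.35), Vma21 (0.34), Thbs3 (0.33; Mtx1 overlaps it), Fam181b (0.29) and Glul. Lix1 fell by 0.73 in the chosen cells and had a change of -1.17 in the positive cells. The most negative were those of Mapt (-0.96), the tau gene of neurons, Asns (-0.88), asparagine synthetase, Gadd45g (-0.71), Eif4ebp1 (-0.70), Nsg2 (-0.63), Ube2c (-0.48), Cited2 (-0.43), Hist1h1c (-0.43) and Tars (-0.42). Neurog2 fell by 0.96 in the chosen cells and had a change of -0.56 in the positive cells (difference of -0.39, SE 0.07, edgeR adjusted p = 0.00104). Gadd45g fell by 0.76 in the chosen cells and had -0.05 in the positive cells (SE 0.11, edgeR adjusted p = 6.3e-05). The calls of Fabp7, Aldoc, Dbi, Mt3, Lix1, Asns, Gadd45g, Ube2c, Cited2, Hist1h1c, Tars, Neurog2 and Dlx5 held in each of the 16 fits that left out a library. Ptprz1 lost its call in 14 of them, Vma21 in 13, Adamts18, Slc15a2, Tanc1 and Thbs3 in 11 each, and Mapt in 10. Npas3 and Glul lost theirs in 7 each, Camk2d in 6, Nsg2 in 5, Eif4ebp1 in 2 and Fam181b in 1.

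Of 10 tested interneuron and ventral progenitor markers the difference was called for 4 (0.529% of all genes were), Dlx1, Dlx2, Dlx5 and Sp9, each more negative in the chosen cells. Dlx5 had 12.6 CPM at E14.5 and 5.67 CPM at E16.0 in the chosen cells and 3.23 and 6.86 CPM in the positive cells (difference of -2.21, SE 0.30, edgeR adjusted p = 5.42e-06), and Dlx1, Dlx2 and Sp9 had differences of -1.86, -1.52 and -3.42. The count of 59 dropped to 33 once the library het M2 of E14.5 was left out and to 39 once het M1 of E16.0 was, and edgeR called 0 genes without the library block (416 at an unadjusted p under 0.05).

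For the genotype comparison, Chd8 itself (chr14:52198151-52257780, - strand; Gm26590 and Snord8 overlap it) was measured first. Its levels in the chosen cells of M1, M2, F1 and F2 at E14.5 were 35.9, 27.5, 44.3 and 27.0 CPM for the WT embryos, against 27.2, 24.6, 35.6 and 30.5 CPM for the het embryos. The E16.0 levels were 33.6, 21.9, 28.1 and 32.4 CPM for WT, against 32.4, 18.9, 26.5 and 25.0 CPM for het. The groups overlapped, het was lower in 7 of 8 pairs, and the log2 difference averaged over stages was -0.20 (SE 0.15, edgeR adjusted p = 1). The 3′ tags may lie outside the altered part of the gene, so Chd8 RNA does not check the genotype here.

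In the edgeR fit with the filter on low counts and without sex or pair as a term, no gene was called between het and WT. At E14.5 (0% of 9956 genes), at E16.0 (0%) and averaged over both stages (0%), edgeR called 0 genes, with 330, 338 and 397 genes at an unadjusted p under 0.05, and DESeq2 also called 0, with 186, 173 and 217. With no filter on low counts edgeR called 10, 36 and 18 genes, and with sex as a covariate it called Mt2 averaged over stages. The interaction of genotype and stage gave 0 genes as well (0%), with 270 at an unadjusted p under 0.05 and 148 by DESeq2. Nor did any gene's genotype effect differ between the chosen cells and Top2a/Mki67-positive radial glia (0% of 11144 genes, edgeR, 457 at an unadjusted p under 0.05). For het against WT averaged over stages, the lists had these medians on the log2 scale. The median was 0.02 for the 20 transcription factors, -0.01 for the 24 structural and transport genes, -0.01 for the 20 Notch genes, -0.02 for the 23 glial onset genes, -0.06 for the 16 neurogenic priming genes and 0.01 for the 20 S-phase genes, beside -0.00 for all genes. By stage, the transcription factors had medians of 0.10 at E14.5 (15 of 20 positive) and -0.08 at E16.0 (6 of 20), and the neurogenic priming genes -0.16 (4 of 16) and 0.03 (9 of 16). The mitochondrial share of the median chosen cell at E16.0 had a mean of 0.777% in het and 0.834% in WT without overlap (n = 4, exact permutation p = 0.0286, the smallest possible), and its part in the genotype comparison was not tested. Red cell genes had a median of -1.69 over 5 genes, with 80.9 to 348 CPM in het and 143 to 4004 CPM in WT at E14.5, and excitatory neuron markers summed to 459 to 569 CPM in het and 350 to 468 CPM in WT at E16.0.

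With the same-named pair as a block, 2 genes were called averaged over stages. Zcwpw1, a reader of histone methylation best known from meiosis (chr5:137787798-137822621; Pilra overlaps it on the other strand), had 5.64, 7.55, 8.99 and 9.20 CPM in WT and 12.5, 18.1, 16.96 and 10.2 CPM in het at E14.5, and 7.91, 8.61, 17.2 and 7.34 CPM in WT and 21.6, 20.01, 23.2 and 19.2 CPM in het at E16.0. Het was higher in 8 of 8 pairs and the groups of a stage did not overlap. The difference of 0.94 (SE 0.19) had an edgeR adjusted p of 0.436 without the block and 0.0486 with it (0.96). Of 16 fits without the block that each left out a library, 1 called it, the fit without WT F1 at E16.0 (edgeR adjusted p = 0.0272). In the others the edgeR adjusted p reached up to 0.901. Mt2, a metallothionein that binds zinc and copper (chr8:94172664-94173568; Gm45774 overlaps it), had 274, 189, 346 and 394 CPM in WT and 174, 164, 253 and 218 CPM in het at E14.5, and 208, 195, 321 and 287 CPM in WT and 144, 156, 200 and 221 CPM in het at E16.0. Het was lower in 8 of 8 pairs, with overlap between embryos of different pairs. The difference was -0.54 (SE 0.16) with an edgeR adjusted p of 1 without the block, and -0.52 with an adjusted p of 0.00028 in the blocked fit.

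At E14.5 the block also gave 2 calls, Mt2 (-0.55, edgeR adjusted p = 0.0137) and Sst (-2.47, edgeR adjusted p = 0.00115), for which a single library, WT M2 with 100.4 CPM, stood apart. Crlf2, a cytokine receptor subunit, had 19.7, 11.9, 15.2 and 14.95 CPM in WT and 17.4, 25.5, 14.4 and 28.4 CPM in het at E14.5, and 15.8, 15.2, 13.3 and 20.2 CPM in WT and 24.1, 26.9, 25.7 and 29.6 CPM in het at E16.0. Het was higher in 6 of 8 pairs and without overlap at E16.0 only, and it was not called (0.63, SE 0.15, edgeR adjusted p = 0.711; not called with the block either, but called with no filter on low counts, adjusted p = 0.0305). Zcwpw1, Mt2, Sst and Crlf2 were singled out after their values were seen. The share of all genes that go the same way in every pair, or do not overlap between genotypes, was not counted. The pair counts of these genes and of Chd8 are therefore descriptions only.

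**Figure D5:**
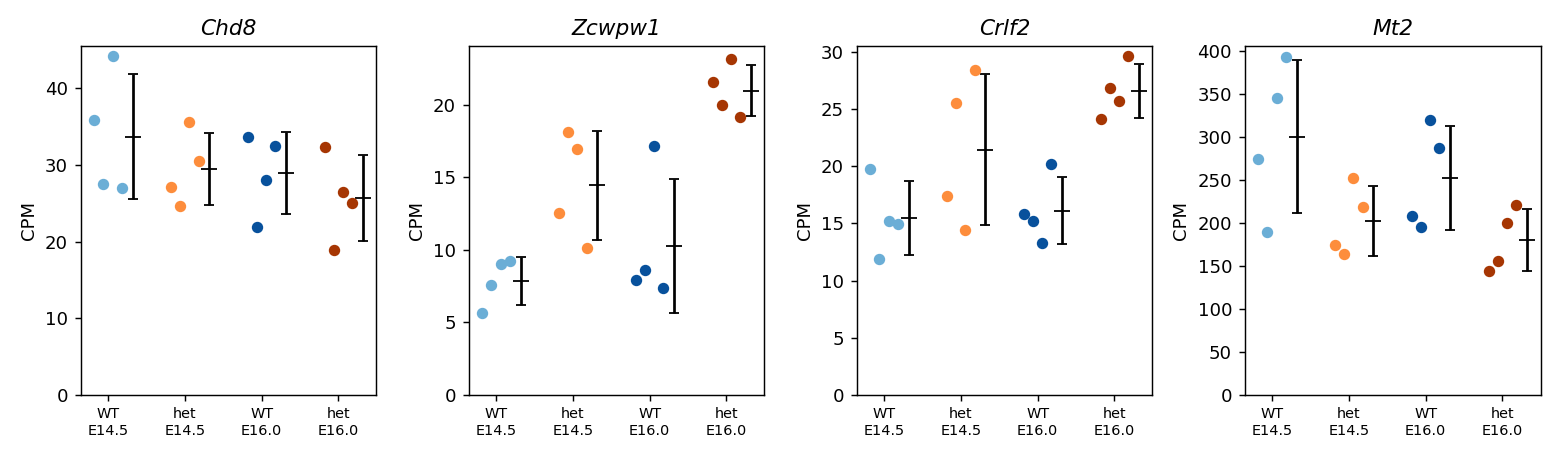
CPM of Chd8, Zcwpw1, Crlf2 and Mt2 in Top2a/Mki67-negative radial glia, each point a library, with the mean and SD of the 4 libraries of each group. Zcwpw1 is higher in het than in WT at both stages, from 19.2 to 23.2 CPM in het at E16.0, Mt2 is lower in the het embryo of each pair, and Chd8 overlaps between genotypes.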

How the data were processed

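The authors deposited whole-number UMI counts per gene and barcode for each library, with 32285 genes, and these counts were not normalised. Per the submitters' processing notes, STAR 2.7.9a, STARsolo, Cell Ranger and build mm10 were used; how cells were called and whether counting used strand is not given in the sources used here. Barcodes with at least 1000 UMIs and 500 genes were kept. The chosen cells and all gene lists were selected with earlier results of these data known.

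UMI counts of the chosen cells were summed per library and fitted with edgeR 4.0.16 (R 4.3.3, TMM scaling, filterByExpr, 4 groups, Benjamini-Hochberg adjustment over all genes); DESeq2 1.42.0 was an alternative, and the tests were checked on simulated data. CPM values were computed from these sums. Shares were compared over libraries with exact permutation tests (scipy 1.17.1). Doublets were sought by simulated doublets at an assumed 0.8% per 1000 cells and were removed only as an alternative. Genes named outside the lists were the 10 with the largest change in each direction among called genes of at least 20 CPM, without the rule's genes, predicted genes, mitochondrial, haemoglobin, Xist and Y-linked genes; the 12 genes against other cells were ranked by the lowest ratio over libraries, at 50 CPM or more. Some genes that enter the fits and counts are not reported here. Positions are from GENCODE M21 (GRCm38), which held 99.8% of the gene identifiers, and promoter sequences from RefSeq (GRCm38.p6).

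The series' design states litter- and sex-matched pairs. The labels do not say that a shared replicate name marks a pair, so pairing by name is an assumption. Deviations of same-named WT and het libraries from their group means correlated at 0.318 to 0.516 at E14.5 and at 0.0318 to 0.201 at E16.0, over 6134 genes. Those of differently named libraries correlated at -0.317 to 0.354 and at -0.268 to 0.216. The het library closest to a WT library was its own pair for 3 of 4 at E14.5 and 1 of 4 at E16.0. Alternatives were another scaling, no filter, sex or pair in the model, doublets removed, a stricter rule, few S-phase UMIs, thinned cells, fewer groups and each library left out.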

Additional observations from a re-analysis of the deposited data

Results flagged for a closer look

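In 92 checks of single libraries within groups of 4, 8 stood apart from the other 3 by more than chance gives in about 1 of 20 groups. The library het F1 at E14.5 had 16.1 CPM of Tnc, where the other het libraries had 4.18 to 4.88 CPM, and 307 CPM of Neurog2, where they had 453 to 481 CPM. WT F1 at E16.0 had 17.2 CPM of Zcwpw1, against 7.34 to 8.61 CPM in the other WT libraries. Sst stood at 100.4 CPM in WT M2 at E14.5, against 18.4 to 26.3 CPM, and at 31.2 CPM in WT F1 at E16.0, against 0 to 3.67 CPM. Reln stood at 72.2 CPM in WT M2 at E16.0, against 0 to 3.30 CPM. After thinning, Tnc was found in 23.6% of the chosen cells of het M1 at E16.0, against 11.5% to 13.6%, and Hes5 in 45.8% of those of het F2 at E16.0, against 38.8% to 39.8%.

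The change from E14.5 to E16.0 differed between the chosen cells and Top2a/Mki67-positive radial glia for 59 genes by the test of that difference.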

How the results depend on the processing

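With the cells restricted to those with at most 1 S-phase UMI, the stage count of 2052 genes was 91, by construction with fewer cells and genes, and Hes5 (0.25), Mt1 (0.51), Fezf2 (0.23), Mycn (0.19), Ldha (0.034), Tpi1 (0.080) and Btg2 (0.21) turned upward. The count was 870 after thinning, which left fewer UMIs, 624 in WT libraries only, and 862 in female and 2133 in male libraries only, both chosen after seeing the data, and lay between 1728 and 2238 without 1 library. Of the genes named for the stage change, 37 lost their call in WT libraries only, 30 in female libraries only, 17 with few S-phase UMIs (beside the 7 that turned), 12 after thinning, 6 in male libraries only, 3 under DESeq2 (Fos, Mpp5 and Spry2) and 3 under a sum of at least 3 UMIs of Sox2 and Pax6 (Birc5, Cdkn1b and Fos). Removing marked doublets, another scaling, no filter and sex as a covariate ended no stage call of a named gene, while Nfib passed with sex as a covariate and in female libraries, Nfia after thinning, Nes in male libraries and Hes1 in male libraries and with no filter.

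The share of chosen cells differed between stages by -1.38 points when the rule was applied after thinning and by -1.48 to -0.857 points without 1 library. The difference of het from WT was -0.0769 to 0.960 points at E14.5 (below 0 without WT M1 or het F2) and -1.28 to 0.0108 points at E16.0. Without thinning, the shares with Dll1, Cdkn1c and the S-phase list passed.

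With no filter on low counts, edgeR called 10 genes between genotypes at E14.5, 36 at E16.0, 18 averaged over stages (among them Crlf2, Mt2, Sst and Zcwpw1), 32 for the interaction, 104 for the stage change against Top2a/Mki67-positive radial glia and 5 for the genotype effect against them; the cause was not tested. Without the library as a block, that stage comparison gave 0 genes, and 33 to 78 without 1 library. The same-named pair as a block gave 2 genes at E14.5 and 2 averaged over stages and changed no other call, and the paired sign-flip of the share of chosen cells gave exact permutation p of 0.625 and 0.375. Averaged over stages, sex as a covariate gave 1 gene (Mt2), male libraries 1 (Rrp1) and female libraries 2 (Nhlh2 and Reln), and leaving out a library 0 to 1 (Zcwpw1); at E16.0 it gave 0 to 1 (Reln, without WT M2). The stage comparison restricted to its own groups is the fit reported.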
